A study of Xenopus laevis with 8 samples.

Results

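Ectodermal explants expressing Chordin were compared with control explants, using 4 of the 8 RNA-sequencing libraries of the series. Libraries 1 and 2 were the control explants and libraries 3 and 4 the explants expressing Chordin, chosen by their group labels alone. The explants came from wild-type embryos of the frog Xenopus laevis, were isolated from the ectoderm, kept in MMR (Marc's modified Ringer's, an amphibian saline), and taken at the early neurula stage. The 2 groups had these conditions in common and differed, per the labels, in the expression of Chordin. The other 4 libraries came from explants expressing Flag-tagged Pinhead, alone (5 and 6) or with Chordin (7 and 8), and were used to estimate the spread between libraries and, in the last comparison, as a second setting for the same question. The labels do not say how Chordin was delivered, at what dose, or whether a group's libraries came from separate batches of embryos. The p-values therefore measure library-to-library spread, which may be technical alone. The study asks about dorsal mesodermal genes; the comparison here asks what a BMP antagonist without Pinhead did to the rest of the transcriptome, in particular to genes of cell division, growth, metabolism, transport, adhesion and the cytoskeleton.

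Bone morphogenetic proteins (BMPs) are secreted signals that keep isolated amphibian ectoderm on the path to epidermis, a layer of keratin-rich surface cells that in the frog also holds multiciliated cells, acid- and salt-transporting ionocytes and mucus-secreting cells. Chordin, made by the Spemann organizer, binds BMPs outside the cell and keeps them from their receptors. Ectoderm shielded from BMPs in this way takes on neural fate, mostly of anterior character, and forms a cement gland, the mucus-secreting organ of attachment of the tadpole.

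Many genes of Xenopus laevis come as a pair, a long copy (.L) and a short one (.S), which were counted separately; where the copies are nearly identical, reads of one can have been counted for the other. Levels are given in CPM, counts relative to the total of the scaled library, with log2 fold changes of Chordin over control. The standard error (SE) of a change is its absolute value divided by the square root of the F statistic of edgeR's quasi-likelihood test. That test takes each gene's spread from all 8 libraries, so the SE is not the spread of the control and Chordin libraries alone. The 2 libraries of a group differed by a mean chi-square of 3.08 in control and 3.03 with Chordin. It was 8.65 with Pinhead and 11.8 with both proteins. Throughout, n was 2 libraries per group. A gene was called where its Benjamini-Hochberg adjusted p over all 23130 genes tested was under 0.05. Most genes named below were chosen among called genes whose control and Chordin libraries did not overlap. Statements that the groups of a named gene were apart thus describe that choice and are no further evidence. The 4 libraries held 16049183 to 17624840 counts. chrd.S, the gene of Chordin, stood at 0.483 and 0.656 CPM in the control libraries and at 816 and 794 CPM in those labelled Chordin, which matched the labels. The keratin genes, whose filaments fill epidermal cells, summed to 44550 and 45541 CPM in the control libraries.

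With Chordin 7329 genes (31.7% of those tested) were called higher and 7408 (32%) lower, and 3723 (16.1%) and 4839 (20.9%) of them by at least 2-fold. These shares are the background for the counts below: a list of genes in which about 32% rose and 32% fell did what genes did in general. Genes that changed by at least 10-fold numbered 936 higher and 1441 lower. A set of 189 genes stood under 1 CPM in both control libraries and at 10 CPM or more in both Chordin libraries, and 311 genes showed the reverse. The summed level of the genes called lower fell by 297700 CPM, that of the genes called higher rose by 207950 CPM, and the 15 genes with the largest losses made up 21% of the loss. Scaled libraries do not share 1 total: all tested genes came to 1052192 CPM (library 1), 1051712 (library 2), 974789 (library 3) and 953388 (library 4). The excess of loss over gain thus follows from the scaling and cannot be read as a net loss of transcript. Of the 66 lists of genes described here, 3269 genes were tested; 38.5% of them were called higher and 29.6% lower. The plot of shares called shows the lists in turn.

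**Figure D1:**
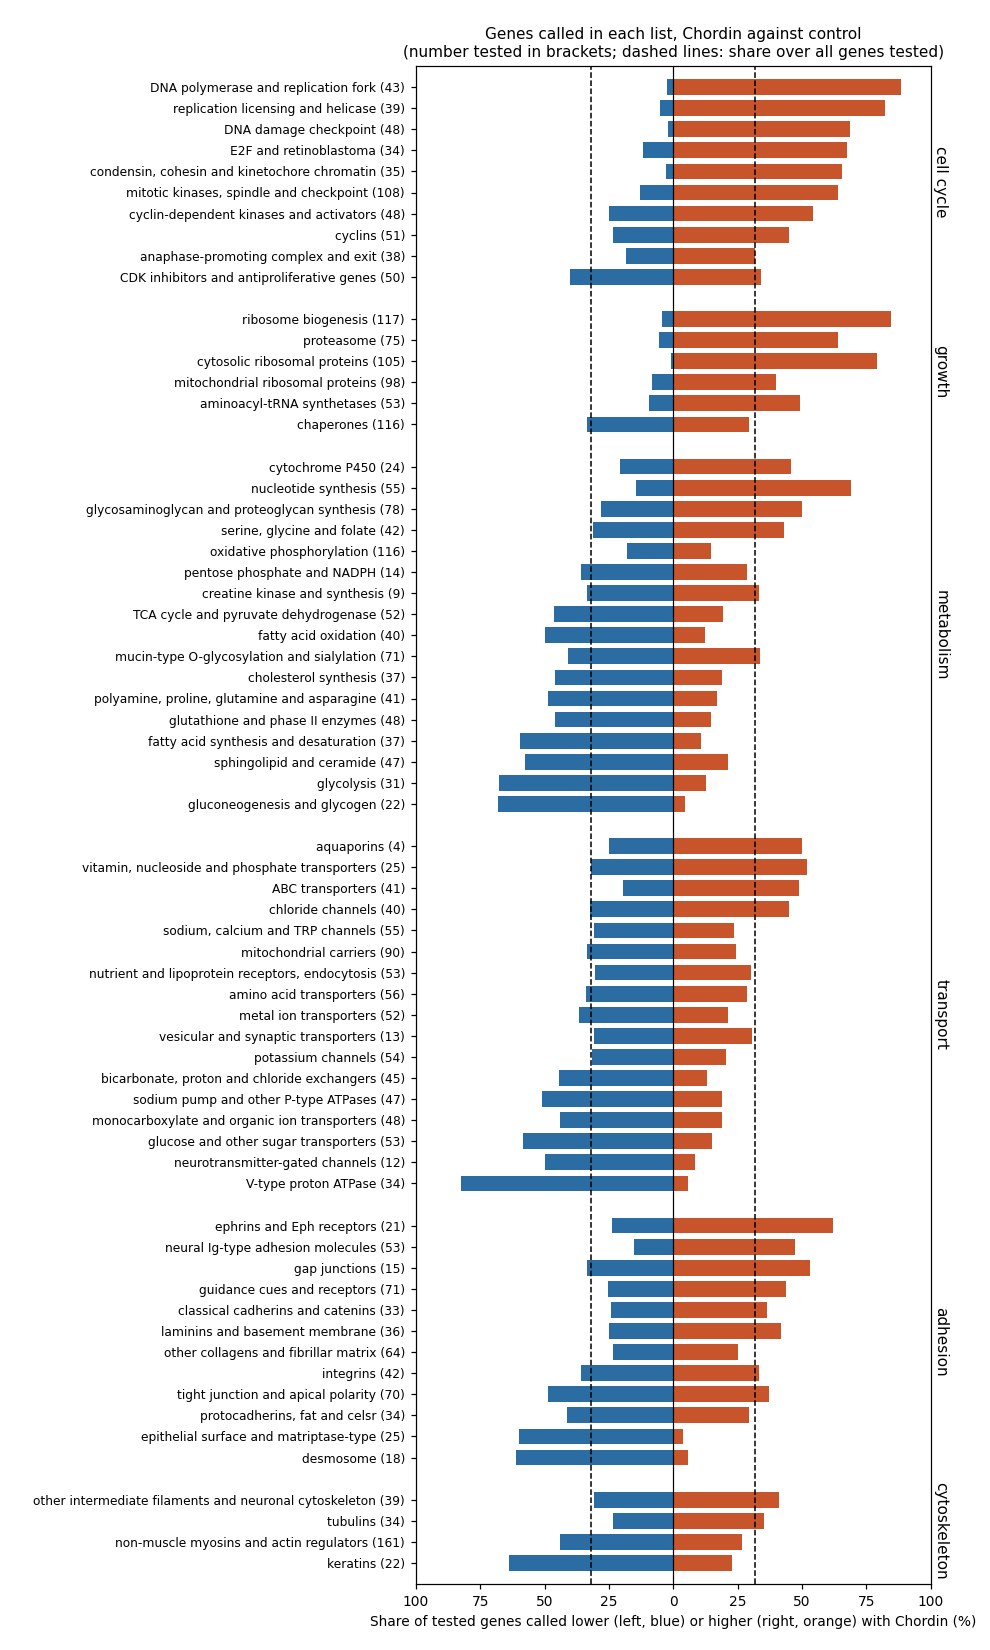
Each bar gives the share of the tested genes of a list that edgeR called higher (to the right) or lower (to the left) with Chordin, in percent, with the number tested in brackets; dashed lines mark the shares over all genes, 31.7% and 32%. Lists of replication, the DNA damage checkpoint and ribosome production reach far to the right of the line. The V-type proton ATPase, glycolysis, glycogen, desmosome and keratin lists reach far to the left.

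Markers of 3 specialised cell types of the epidermis fell in sum. Of 11 tested ionocyte markers all 11 were called lower, and they summed to 901 and 854 CPM in the controls and to 18 and 14.5 CPM with Chordin; ca2.L, ca2.S and dmrt2.L had no counts in either Chordin library. Of 75 multiciliated cell markers 71 were lower and 2 higher, with sums of 4224 and 4436 CPM in the controls and 458 and 452 CPM with Chordin. Of 17 markers of goblet and small secretory cells 9 were lower, 1 higher and 7 not called, with sums of 10743 and 11344 CPM against 2498 and 2622 CPM. A large part of the control sums came from 1 gene, has1.S, whose levels are given below. In these pooled tissues, fewer cells of a type and less RNA per cell cannot be told apart. Each list of markers of other tissues held genes called in both directions, where 31.7% of all genes were higher and 32% lower. The share called higher ran from 13.3% (germ line and oocyte) to 45.9% (placode). The share called lower ran from 17.4% (notochord) to 51.9% (neural crest). Some lists lay near the shares over all genes, such as that of neurons with 32.4% higher and 24.3% lower. The 23 notochord markers summed to 46 and 42.8 CPM in the controls and to 843 and 822 CPM with Chordin, with 7 higher and 4 lower (1 lower without library 3, 2 without library 4). The list holds chrd itself, and its 3 copies made up 821 and 799 CPM of the sum with Chordin. Without them the other 20 markers summed to 45.4 and 42 CPM in the controls and 22.2 and 22.5 CPM with Chordin. The 10 copies of defining notochord genes, namely brachyury (t), the homeobox gene not, shh, foxa4 and admp, summed to 2.96 and 3.15 CPM and to 2.16 and 3.22 CPM. Of 17 endoderm and gut markers 7 were higher (4 without library 1) and 8 lower (5 without library 1), with sums of 209 and 203 CPM in the controls and 621 and 636 CPM with Chordin, most of it from a2m.S, which encodes the protease inhibitor alpha-2-macroglobulin, at 117 and 118 CPM and 524 and 530.1 CPM. Of 10 endothelium markers 4 were higher and 4 lower, with sums of 22.3 and 20.5 CPM against 62.1 and 65.4 CPM. Of 10 markers of blood and macrophages 3 were higher (1 with the 4 libraries fitted alone) and 4 lower (1 to 2 without library 1, 2 or 4 and in DESeq2), with sums of 50.5 and 51.9 CPM against 10.9 and 8.03 CPM. Of 27 neural crest markers 9 were higher and 14 lower, with sums of 1046 and 956 CPM against 1157 and 1137 CPM. Of 37 placode markers 17 were higher and 11 lower, with sums of 1630.03 and 1551 CPM against 1803 and 1680.1 CPM. Of 30 germ line and oocyte markers 4 were higher (1 without library 2, 2 without library 4) and 15 lower, with sums of 306 and 308 CPM against 203 and 192 CPM. Markers of skeletal and heart muscle summed to 48.9 and 51.2 CPM in the controls and to 76.6 and 76.5 CPM with Chordin over 35 genes, 13 of them called higher and 7 lower (4 lower without library 2 or without library 4). Markers of differentiated neurons (37 genes) summed to 1103 and 1124 CPM in the controls and to 999 and 963 CPM with Chordin, with 12 higher and 9 lower. What part RNA of any of these tissues has in the changes below was not tested.

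Genes of DNA replication rose together. Among 39 genes that license replication origins and unwind DNA, 32 were called higher and 2 lower (median log2 fold change 0.99), and among 43 genes of DNA polymerases and the replication fork 38 were higher and 1 lower (median 1.15), where the median over all genes was 0. The replicative helicase is a ring of 6 proteins, MCM2 to MCM7. Its 12 tested gene copies summed to 1093 and 1095 CPM in the controls and to 3397 and 3145 CPM with Chordin; 10 copies rose and 2 fell. mcm4.S stood at 22.4 and 22.4 CPM in the controls and at 156 and 158 CPM with Chordin. mcm2.S stood at 29.1 and 33.9 CPM and 159.6 and 149 CPM in the same order. Both were well separated between the groups, with log2 fold changes of 2.81 ± 0.11 (SE) and 2.29 ± 0.10 (SE) and edgeR adjusted p-values of 9.76e-08 and 1.90e-07.

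The 2 forms of MCM6 moved apart. In Xenopus, mcm6.2 is the zygotic and mcm6 the maternal form, by the synonyms in the RefSeq gene table. mcm6.2.S stood at 46.2 and 50.3 CPM in the controls and 283 and 283 CPM with Chordin, and mcm6.2.L at 112 and 118 CPM and 393 and 374 CPM. The maternal form mcm6.L stood at 37.9 and 38.9 CPM in the controls and 12.2 and 14.1 CPM with Chordin, a log2 fold change of -1.54 ± 0.13 (SE, adjusted p = 7.60e-06 in edgeR). The levels of the zygotic form were thus higher and those of the maternal form lower in both Chordin libraries than in either control library. The other helicase copy that fell, mcm3.L, was low throughout, at 2.6 and 2.49 CPM and 0.83 and 0.928 CPM.

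At the fork, pcna.L, the sliding clamp that holds polymerases on DNA, stood at 109 and 105 CPM in the controls and 522 and 465 CPM with Chordin. pole.L, the catalytic subunit of the leading-strand polymerase epsilon, stood at 26.3 and 28.5 CPM and 111 and 107 CPM. The groups did not overlap for either gene, and the log2 fold changes were 2.21 ± 0.13 (SE) and 1.99 ± 0.11 (SE, edgeR adjusted p of at most 1.03e-06). All 6 tested copies of replication protein A, which coats single-stranded DNA, rose at least 2-fold. The largest of these rises was that of rpa2.S, from 1.03 and 0.656 CPM to 15.9 and 15.5 CPM. All 6 copies of replication factor C, the clamp loader, were called higher too, 4 of them at least 2-fold. The fork gene called lower was top1.2.S, a topoisomerase I gene, at 13.2 and 16.2 CPM in the controls and 3.76 and 3.28 CPM with Chordin.

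Enzymes that make the building blocks of DNA and RNA rose in the same samples. Of 55 genes of nucleotide synthesis 38 were called higher and 8 lower (5 lower without library 1 or without library 4), and 26 rose at least 2-fold. For purines, 14 of 17 gene copies of the synthesis enzymes were higher and 1 lower, and their sum went from 920.02 and 882 CPM to 2135 and 2152 CPM. hprt1.S, which salvages purine bases, stood at 0.302 and 0.722 CPM in the controls and 6.53 and 8.3 CPM with Chordin. nme3.L, a nucleoside diphosphate kinase, stood at 2.96 and 3.15 CPM and 27.1 and 26.6 CPM. Ribonucleotide reductase turns ribonucleotides into deoxyribonucleotides, and the genes of its small subunit diverged. rrm2.2.L stood at 137 and 139 CPM in the controls and 639 and 623 CPM with Chordin, whereas rrm2.1.L stood at 199.7 and 196 CPM and 82.3 and 73.7 CPM. Neither pair of groups overlapped, and both changes passed the test (edgeR adjusted p of at most 7.29e-06).

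**Figure D2:**
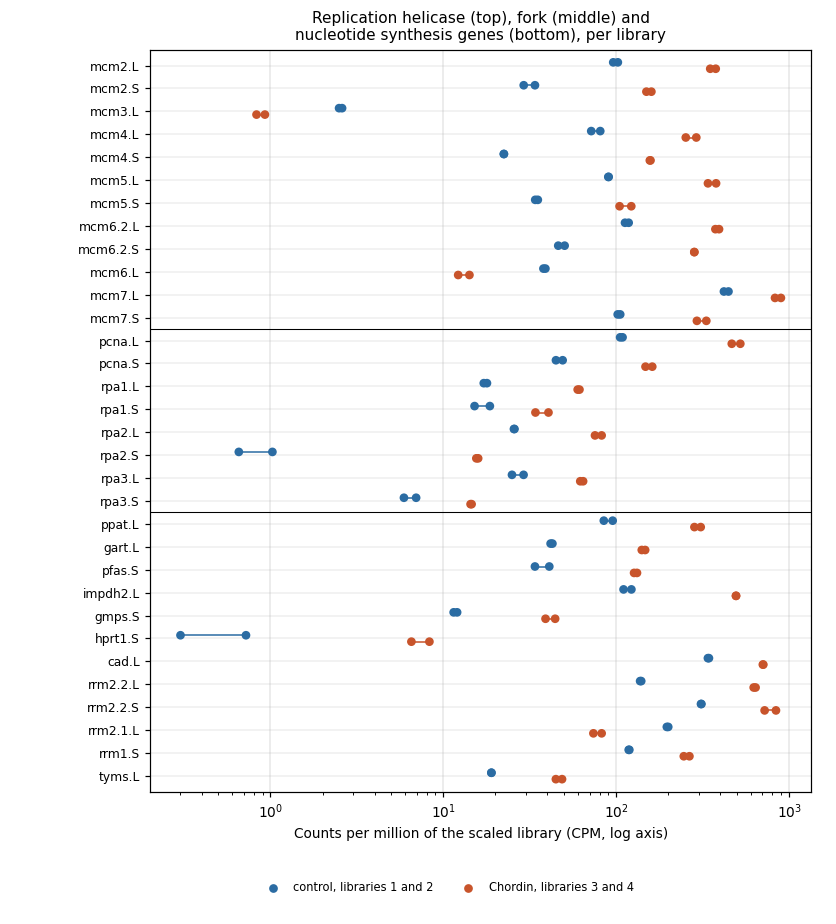
Levels per library of genes of the replicative helicase, the replication fork and nucleotide synthesis, in CPM on a log axis; each point is 1 library, and lines join the 2 libraries of a group. The Chordin libraries lie to the right of the control libraries for all genes drawn except mcm3.L, mcm6.L and rrm2.1.L.

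Control of the cell cycle changed in a more divided way. In the list of E2F and retinoblastoma genes, the switch by which cells enter the replication phase, 23 of 34 were higher and 4 lower. tfdp2.L, a dimer partner of E2F factors, stood at 8.21 and 7.09 CPM in the controls and 40.3 and 40.3 CPM with Chordin. mybl1.S, a Myb transcription factor, stood at 0.422 and 0.525 CPM and 17.2 and 17.3 CPM. Of the retinoblastoma family, rbl2.L fell from 33.6 and 38.6 CPM to 12.7 and 14.6 CPM. Among 51 cyclins 23 were higher and 12 lower (7 lower without library 3 or without library 4). ccnd1.S, cyclin D1, which drives entry into the cycle, stood at 43.3 and 32.7 CPM in the controls and 137 and 122 CPM with Chordin, a log2 fold change of 1.77 ± 0.13 (SE, adjusted p = 4.23e-06 in edgeR). Of 108 genes of mitotic kinases, the spindle and its checkpoint, 69 were higher and 14 lower; 12 rose at least 2-fold and the median log2 fold change was 0.48, against 0.99 and 1.15 in the replication lists. In the list of condensin, cohesin and kinetochore genes 23 of 35 were higher and 1 lower, and that 1 call was lost without library 2, 3 or 4. In the DNA damage checkpoint list 33 of 48 were higher; 1 was lower (2 without library 5, 6, 7 or 8, and 3 with the 4 libraries fitted alone). rad54l.S, of homologous recombination, went from 6.28 and 8.53 CPM to 21.4 and 25.6 CPM.

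Some cell cycle genes fell steeply. ccno.S, a cyclin needed for making the many centrioles of multiciliated cells, stood at 257 and 242 CPM in the controls and 0.775 and 1.2 CPM with Chordin. plk4.S, the kinase that starts centriole duplication, stood at 62.4 and 71.9 CPM and 2.05 and 2.29 CPM. nek2.L, a kinase of the centrosome, stood at 559 and 515 CPM and 87.8 and 92.8 CPM, and cdk7.L, a kinase that activates other cyclin-dependent kinases, at 211 and 224 CPM and 33.7 and 39.5 CPM. ccna1.L, cyclin A1, stood at 13.8 and 14.2 CPM in the controls and 0.221 and 0.218 CPM with Chordin. No group overlapped, and the log2 fold changes ranged from -7.97 for ccno.S to -2.57 for nek2.L (edgeR adjusted p of at most 0.000531). ccno.S is itself among the multiciliated cell markers, which fell in the same libraries, as given above; their part in these changes was not tested.

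Among 50 genes that restrain proliferation 17 (34%) were higher and 20 (40%) lower; the median log2 fold change was -0.09 and turned to 0.04 when libraries were scaled by total counts alone. sesn1.S, a sestrin that dampens growth signalling, rose from 9.6 and 11.3 CPM to 49.8 and 42.9 CPM. tob1.S, an antiproliferative gene of the BTG family, fell from 63.4 and 55.7 CPM to 11.1 and 11.4 CPM, and gadd45g.S, a stress-induced growth arrest gene, from 36 and 36.7 CPM to 5.26 and 5.41 CPM. Over the whole block of cell cycle lists, 292 of 488 genes (59.8%) were higher and 72 (14.8%) lower, and their summed level went from 23509 and 23510 CPM to 31865 and 30726 CPM.

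Most genes of ribosome production rose. Of 117 ribosome biogenesis genes, which process ribosomal RNA and assemble subunits in the nucleolus, 99 were called higher and 5 lower, 35 of them higher at least 2-fold (median log2 fold change 0.73). wdr12.S, of the complex that processes large-subunit RNA, stood at 8.15 and 6.76 CPM in the controls and 23.3 and 21.4 CPM with Chordin. wdr36.S, of the small-subunit processome, stood at 25.5 and 22.6 CPM and 82.6 and 83.7 CPM. ncl.S, which encodes the nucleolar protein nucleolin, stood at 1895 and 1834 CPM and 3095 and 2877 CPM, a rise of 0.68 ± 0.11 (SE) on the log2 scale (adjusted p = 0.000406 in edgeR). The lower genes included npm2.L, at 24 and 26.1 CPM in the controls and 9.63 and 10.8 CPM with Chordin. It is in the list by its symbol and encodes a nucleoplasmin stored in the egg. Whether its fall bears on ribosome assembly was not tested. Of the 5 lower genes 3 fell at least 2-fold, and those other than npm2.L are not named here. myc.S and mycn.L encode Myc factors, which drive ribosome production; they were looked up after the values of the list were seen, and both rose. myc.S stood at 93.1 and 85.9 CPM and 548 and 536 CPM. mycn.L stood at 0.483 and 1.05 CPM and 22.6 and 20.5 CPM. Other copies of these genes are not reported here, and the part of Myc factors in the rise of the list was not tested.

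The ribosomal proteins themselves moved little but together. Of 105 cytosolic ribosomal protein genes 83 were called higher and 1 lower, none by 2-fold, with a median log2 fold change of 0.38; without library 2, 52 were called higher. Their sum was 15074 and 14393 CPM in the controls and 18989 and 19161 CPM with Chordin. Of 98 mitochondrial ribosomal protein genes 39 were higher and 8 lower; the lower calls were 4 without library 1 or without library 3, and DESeq2 called 25 higher and 4 lower. Of 75 proteasome genes 48 were higher and 4 lower (2 lower without library 4); psmd4.L, a ubiquitin receptor of the proteasome, went from 36.9 and 38.6 CPM to 88.6 and 79.6 CPM. Chaperones showed no common direction, with 34 of 116 higher (29.3%) and 39 lower (33.6%), near the shares over all genes. dnajc6.L, the auxilin that uncoats clathrin vesicles, stood at 1.21 and 0.787 CPM in the controls and 25.2 and 24 CPM with Chordin, and dnajb13.S, known from the axoneme of motile cilia, at 45 and 44 CPM and 2.93 and 4.64 CPM, beside the fall of the multiciliated cell markers given above. Over all growth lists 329 of 564 genes (58.3%) were higher and 62 (11%) lower.

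In central carbon metabolism more genes fell than rose. Of 31 glycolysis genes 21 were called lower and 4 higher (median log2 fold change -0.85), and of 22 genes of gluconeogenesis and glycogen 15 were lower and 1 higher, the latter call being lost without library 3 and in DESeq2. Hexokinases commit glucose to the cell by phosphorylating it. Of their 5 tested gene copies 4 fell, and 3 of these, gck.L and both hk2 copies, had the lowest log2 fold changes of the glycolysis list; hk1.S rose, from 3.2 and 3.48 CPM to 12.2 and 11.1 CPM. hk2.S stood at 343 and 374 CPM in the controls and 16.6 and 20.2 CPM with Chordin, and its copy hk2.L at 52.6 and 56.6 CPM and 8.69 and 10.2 CPM. gck.L, glucokinase, stood at 5.67 and 6.43 CPM in the controls and 0.0554 and 0.0546 CPM with Chordin, where it had 2 counts in all; the ratio of control to Chordin was 109.8 (95% counting interval 30.0 to 913). Phosphofructokinase, a main control point further down, was divided by gene, with 2 copies higher and 2 lower: pfkm.S stood at 25.8 and 25.9 CPM in the controls and 77.9 and 77.8 CPM with Chordin, and pfkp.L at 85.8 and 109 CPM and 28.5 and 23.8 CPM. fbp1.L, which catalyses the reverse of the phosphofructokinase reaction in gluconeogenesis, fell from 448 and 437 CPM to 42.1 and 34.5 CPM, and pygm.S, a glycogen phosphorylase, from 173 and 179.8 CPM to 26 and 26.2 CPM. The log2 fold changes were -4.28 ± 0.46 (SE) for hk2.S, 1.59 ± 0.11 (SE) for pfkm.S and -3.53 ± 0.37 (SE) for fbp1.L, with edgeR adjusted p-values of at most 3.98e-05. The groups of each of these genes were apart in every library.

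Genes of the respiratory chain and ATP synthase changed little in size. Of 116 genes of oxidative phosphorylation 17 were called higher and 21 lower, 78 were not called, and 85 lay within 0.5 of zero on the log2 scale. The median log2 fold change was -0.09 and turned to 0.04 under scaling by total counts. The number of calls depended on single libraries: 8 were higher without library 1, 2 or 4 and in DESeq2, and 11 higher and 12 lower without library 3. In the list of the TCA cycle and pyruvate dehydrogenase 10 of 52 genes were higher and 24 lower; without library 1, 6 were higher, and without library 4, 15 were lower. pdk4.S, a kinase that switches pyruvate dehydrogenase off, was the largest rise there, from 11.5 and 9.84 CPM to 83.2 and 72.6 CPM (log2 fold change 2.86 ± 0.20 SE, edgeR adjusted p = 2.25e-06).

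Lipid synthesis genes fell more often than they rose. Of 37 genes of fatty acid synthesis and desaturation 22 were lower and 4 higher, and of 47 sphingolipid genes 27 were lower and 10 higher. elovl2.L, which lengthens long polyunsaturated fatty acids, stood at 49.8 and 58.4 CPM in the controls and 0.166 and 0.273 CPM with Chordin. acss2.1.L, which makes acetyl-CoA from acetate, stood at 166 and 183 CPM and 23 and 23 CPM. sgpp1.L, a phosphatase of sphingosine 1-phosphate, stood at 148 and 151 CPM and 10.5 and 10.6 CPM, and sgms1.L, sphingomyelin synthase, at 45.6 and 44.5 CPM and 4.82 and 4.59 CPM. For each of these genes both Chordin libraries lay below both control libraries (edgeR adjusted p of at most 8.94e-05). An exception was acsl3.L, which activates long-chain fatty acids, with 26.4 and 23 CPM in the controls and 68.2 and 67.6 CPM with Chordin.

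Genes of serine, glycine and folate metabolism, which supplies carbon units for nucleotides and methylation, moved both ways, 18 of 42 up and 13 down. psat1.L, an aminotransferase of serine synthesis, stood at 0.483 and 0.459 CPM in the controls and 33.5 and 35 CPM with Chordin, a log2 fold change of 6.16 ± 0.19 (SE, adjusted p = 2.53e-08 in edgeR). phgdh.L, the first enzyme of the same pathway and looked up after psat1.L was seen, rose from 0.181 and 0.0656 CPM to 2.88 and 2.51 CPM. gldc.S, of the glycine cleavage system, stood at 32.6 and 31.6 CPM in the controls and 145 and 128 CPM with Chordin. aldh1l1.L, which burns off a folate-bound carbon unit, fell from 199 and 203 CPM to 19.6 and 18.4 CPM. mat1a.L, which makes S-adenosylmethionine, fell from 27.4 and 27.8 CPM to 2.77 and 2.73 CPM, and arg2.S, the mitochondrial arginase of the polyamine list, from 41.9 and 43.5 CPM to 6.26 and 5.24 CPM. In the polyamine, proline, glutamine and asparagine list 7 of 41 were higher and 20 lower. Of 48 glutathione and detoxification genes 7 were higher and 22 lower.

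Genes that build sugar chains of the cell surface moved both ways. In the glycosaminoglycan and proteoglycan list 39 of 78 genes were higher and 22 lower. Of 16 tested sulfotransferase genes of the chst family, which add sulfate to such chains, 12 rose and 3 fell, all by at least 2-fold. chst2.S stood at 0.905 and 0.525 CPM in the controls and 12.4 and 13 CPM with Chordin, and chst3.S at 0.241 and 0.197 CPM and 5.15 and 6.17 CPM. Of 6 hyaluronan synthase genes 2 were lower and 3 higher. The 2 lower ones had the highest levels in control: has1.S stood at 4834 and 4465 CPM and 277 and 262 CPM, and has-rs.S at 660.3 and 636 CPM and 28.6 and 16 CPM. has1.S is also counted among the goblet and secretory cell markers. The 3 that rose, copies of has2 and has3, stayed under 3 CPM. st8sia1.S, the sialyltransferase that makes ganglioside GD3, had no counts in control and 10.7 and 10.2 CPM with Chordin, at least 111-fold higher; st8sia1.L stood at 0.543 and 0.919 CPM and 40.3 and 38.1 CPM. st3gal5.S, which makes the ganglioside GM3, rose from 0.302 and 0.328 CPM to 15.4 and 18 CPM. fut1.S, a fucosyltransferase, fell from 53.3 and 42.3 CPM to 6.7 and 5.13 CPM.

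Among 24 cytochrome P450 genes 11 were higher and 5 lower. cyp26c1.S, which degrades retinoic acid, stood at 0.0603 and 0.197 CPM in the controls and 164 and 142 CPM with Chordin (log2 fold change 10.16 ± 0.23 SE, edgeR adjusted p = 8.81e-09). cyp27c1.S, known in fish and amphibians as the enzyme that converts vitamin A1 to A2, stood at 4.95 and 3.54 CPM and 549 and 498 CPM. cyp1b1.L had no counts in control and 12.6 and 13.8 CPM with Chordin, at least 140.2-fold higher. Over all metabolic lists 208 of 761 genes (27.3%) were higher and 293 (38.5%) lower.

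Among the 66 lists, that of the V-type proton ATPase had the largest share of genes called lower (82.4%). This pump acidifies organelles and, on the surface of ionocytes, secretes acid. Of 34 tested gene copies 28 were called lower and 2 higher, 23 of them lower at least 2-fold, with a median log2 fold change of -1.72. The copies are given here in sets split by the size of their own change, so the low level of the first set with Chordin follows in part from the split. A set of 9 copies fell at least 16-fold and summed to 665 and 644 CPM in control but to 5.98 and 3.50 CPM with Chordin. These 9 were copies of atp6v0a4, atp6v0d2, atp6v1b1, atp6v1c2, atp6v1g3 and atp6ap1.1. In mammals the products of atp6v0a4, atp6v0d2, atp6v1b1, atp6v1c2 and atp6v1g3 are subunit forms of kidney and other acid-secreting or specialised cells. atp6v0a4.L stood at 81.7 and 73.7 CPM in the controls and 0.0554 and 0.0546 CPM with Chordin, where it had 2 counts in all; the ratio of control to Chordin was 1415 (95% counting interval 391 to 11694). atp6v1c2.L stood at 119.7 and 117 CPM and 0.443 and 0.109 CPM, and atp6v1b1.L, which is also among the ionocyte markers, at 226 and 218 CPM and 3.54 and 1.64 CPM. Every control library exceeded every Chordin library for all 9 copies, which their choice by a fall of at least 16-fold favours.

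The other 25 copies, among them the widely used subunit forms, summed to 1839 and 1854 CPM in the controls and 649 and 671 CPM with Chordin. Of these 19 were lower and 2 higher. atp6v0c.L, of the membrane ring of the pump, stood at 398 and 395 CPM in the controls and 41.6 and 43.3 CPM with Chordin, a log2 fold change of -3.22 ± 0.17 (SE, adjusted p = 5.98e-07 in edgeR). atp6v0d1.L, the widely used form of the subunit d, stood at 59.9 and 61.4 CPM and 58.8 and 57.8 CPM and was not called (adjusted p = 0.597 in edgeR). atp6v1g2.L, in mammals the form found in neurons, rose from 0.845 and 2.17 CPM to 16.8 and 14.7 CPM. The ionocyte markers fell in the same libraries, from 901 and 854 CPM to 18 and 14.5 CPM in sum; their part in the pump genes' fall was not tested.

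**Figure D3:**
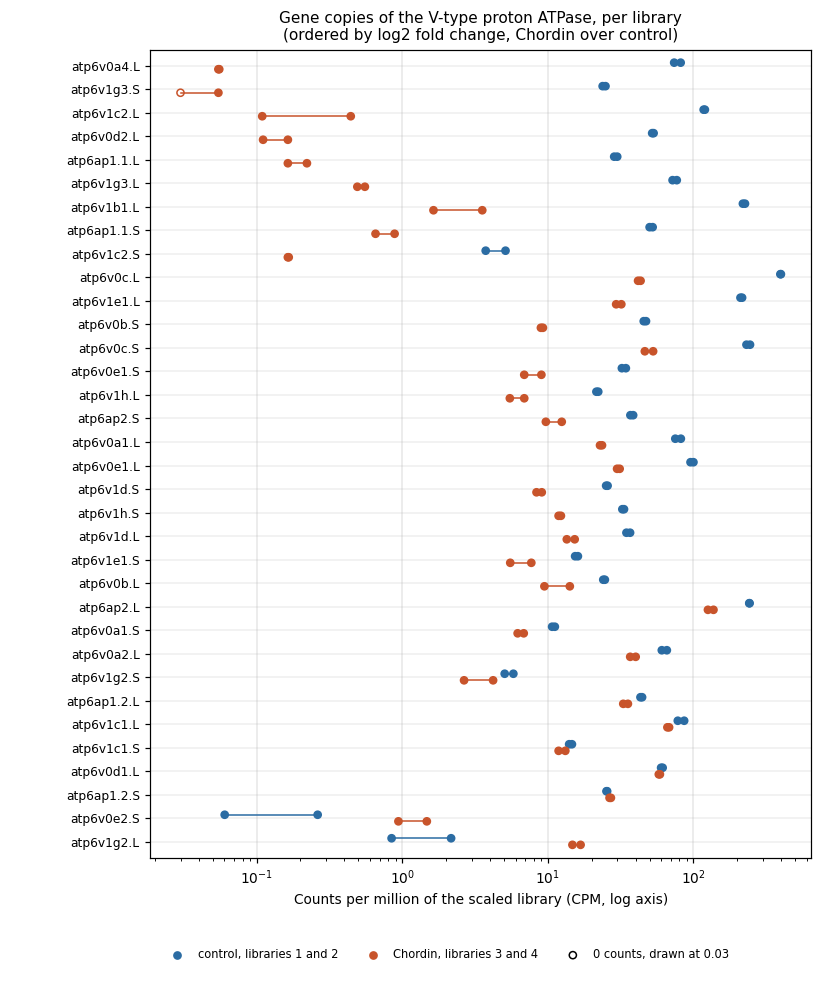
Levels per library of the 34 tested gene copies of the V-type proton ATPase, in CPM on a log axis, ordered by log2 fold change; each point is 1 library, and a library with no counts is drawn as an open circle. The top 9 copies fall at least 16-fold with Chordin, the next copies fall less, and only atp6v0e2.S and atp6v1g2.L at the bottom are called higher.

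In the list of bicarbonate, proton and chloride exchange, which includes partners of acid secretion, more genes fell than rose. Of 45 genes 20 were lower and 6 higher. The carbonic anhydrase ca2.L, which supplies protons and bicarbonate, stood at 111 and 97.1 CPM in the controls and had no counts with Chordin, at least 1265-fold lower. ca7.S, another carbonic anhydrase, stood at 11.4 and 12.9 CPM and 0 and 0.0546 CPM. In the list of sodium pumps and other P-type ATPases 24 of 47 were lower and 9 higher. atp2c2.L, a calcium and manganese pump of the secretory pathway, fell from 58.1 and 71.4 CPM to 3.49 and 2.68 CPM, while atp1b3.L, a subunit of the sodium pump, rose from 23.1 and 20.3 CPM to 68.3 and 68.6 CPM.

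Nutrient transporters fell and rose, often by large amounts. Of 53 sugar transporters 31 were lower and 8 higher, slc2a12.L among them with 62.3 and 68.8 CPM in the controls and 5.15 and 6.06 CPM with Chordin. Of 56 amino acid transporters 16 (28.6%) were higher and 19 (33.9%) lower, near the shares over all genes. slc38a2.L, a transporter of small neutral amino acids, stood at 152 and 158 CPM in the controls and 2.55 and 3.0 CPM with Chordin, and slc6a3.S, which by its symbol is the dopamine transporter, at 310.5 and 352 CPM and 0.0554 and 0.273 CPM. slc1a1.S, a glutamate transporter, stood at 0.0603 and 0.131 CPM in control, 3 counts in all, and 62.8 and 63.3 CPM with Chordin; the ratio was 669 (95% counting interval 229 to 3245). slc43a2.L, a transporter of large neutral amino acids, stood at 1.09 and 1.25 CPM and 11.8 and 11.9 CPM. slc22a5.L, the carnitine transporter, fell from 1179 and 1218 CPM to 60.3 and 57.5 CPM. It was one of the 15 genes that lost most transcript among called genes with a gene symbol and no overlap of the groups. vdac1.L, a pore of the outer mitochondrial membrane, fell from 143 and 158 CPM to 20.9 and 21 CPM. slc25a1.L, the mitochondrial citrate carrier, fell from 341 and 350.5 CPM to 58.9 and 59 CPM. In the list of mitochondrial carriers 22 of 90 genes (24.4%) were higher and 30 (33.3%) lower, with a median log2 fold change of -0.02. The edgeR adjusted p was at most 0.000573 for the fitted genes of this paragraph.

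Some other transport genes rose from low levels in control, in lists that held genes called both ways. Of 53 nutrient and lipoprotein receptor and endocytosis genes 16 (30.2%) were higher and 16 (30.2%) lower, near the shares over all genes. Of 41 ABC transporters 20 were higher and 8 lower, and of 25 vitamin, nucleoside and phosphate transporters 13 were higher and 8 lower. Of 4 aquaporins 2 were higher and 1 lower. The counts of these lists depended in part on single libraries. aqp3.L, a channel for water and glycerol, stood at 0.302 and 0.262 CPM in the controls and 49.3 and 52.6 CPM with Chordin, a log2 fold change of 7.46 ± 0.19 (SE). lrp2.L, megalin, a large endocytic receptor that also binds sonic hedgehog and BMPs, stood at 0.362 and 0.853 CPM and 196 and 196 CPM, a log2 fold change of 8.34 ± 0.22 (SE). lrp1.S, a relative that takes up lipoproteins and proteases, stood at 2.53 and 3.35 CPM and 48.2 and 48 CPM. slc29a1.S, a nucleoside transporter, stood at 1.63 and 1.64 CPM and 22.6 and 23 CPM, and slc20a1.S, a phosphate transporter, at 5.25 and 5.31 CPM and 22.2 and 22.8 CPM. abca1.L, which exports cholesterol, rose from 2.05 and 2.17 CPM to 14.9 and 17.4 CPM. All of these passed the test with an edgeR adjusted p of at most 4.81e-06, and in none did the groups overlap. Over all transport lists 180 of 720 genes (25%) were higher and 281 (39%) lower.

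Adhesion genes as a block moved both ways in shares near those of all genes, but by larger changes, as given below. Of 33 classical cadherins and catenins 12 (36.4%) were higher and 8 (24.2%) lower, against 31.7% and 32% of all genes. cdh20.S, a cadherin expressed in neural tissue, stood at 0.181 and 0.0656 CPM in the controls and 62.1 and 63.1 CPM with Chordin, and cdh20.L had no counts in control and 27.4 and 25.6 CPM with Chordin, at least 281-fold higher. The short copy of neural cadherin, cdh2.S, stood at 7.85 and 7.61 CPM and 111 and 98 CPM. cdh1.S, epithelial cadherin, fell from 916 and 955 CPM to 267 and 285 CPM. Its long copy, cdh1.L, went from 0.966 and 0.656 CPM to 8.25 and 9.34 CPM, the opposite way. Of 18 desmosome genes, which anchor keratin filaments between epidermal cells, 11 were lower and 1 higher (3 higher under scaling by total counts and with the 4 libraries fitted alone). ppl.L, periplakin, stood at 249 and 279 CPM in the controls and 43 and 43.5 CPM with Chordin, and pkp1.L, plakophilin 1, at 8.93 and 9.12 CPM and 0.886 and 1.04 CPM. The desmosomal cadherin gene dsc3.S was the 1 higher, from 2.84 and 2.69 CPM to 17.2 and 16.7 CPM.

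Junction and polarity genes moved both ways, with 26 of 70 higher (37.1%) and 34 lower (48.6%). crb2.L, of the Crumbs family that defines the apical face of epithelia, stood at 0.121 and 0.0656 CPM in control, 3 counts in all, and 86 and 95.4 CPM with Chordin; the ratio was 962 (95% counting interval 329 to 4669). llgl1.L, a copy of the basolateral polarity gene Lgl, stood at 15.7 and 13.6 CPM and 633 and 559.6 CPM. It was among the 15 genes that gained most transcript, of called genes with a gene symbol and no overlap of the groups. Of 21 claudins, the strands of tight junctions, 12 were lower and 5 higher. cldn1.S stood at 239 and 235 CPM in the controls and 4.04 and 3.5 CPM with Chordin. ocln.S, occludin, stood at 149 and 141 CPM and 36.6 and 42.9 CPM. Surface proteases and their inhibitors of the epithelium also fell: in that list 15 of 25 were lower and 1 higher, with prss8.L at 54.1 and 55.6 CPM and 8.25 and 9.01 CPM and spint1.L at 103 and 98.9 CPM and 23.2 and 23.5 CPM.

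Within the family of matrix receptors, members moved in opposite directions. Of 42 integrin genes 14 (33.3%) were higher, fewer without library 2, and 15 (35.7%) lower. These shares were near the 31.7% and 32% of all genes. The beta subunit gene itgb3.L stood at 74.8 and 65.5 CPM in the controls and 0.72 and 0.546 CPM with Chordin, and the alpha subunit gene itga5.S, of the fibronectin receptor, at 54.4 and 57.7 CPM and 1.99 and 1.69 CPM. itgb5.L, another beta subunit gene, stood at 17 and 13.7 CPM and 87.2 and 88.3 CPM. Kindlins, which activate integrins from within the cell, also moved apart: fermt1.S, in mammals the form of epithelia, went from 32.8 and 32.6 CPM to 0.332 and 0.218 CPM, and fermt2.L from 17.6 and 15.9 CPM to 52.3 and 50.5 CPM. The log2 fold changes were -6.78 ± 0.76 (SE) for itgb3.L, 2.51 ± 0.16 (SE) for itgb5.L, -6.86 ± 0.94 (SE) for fermt1.S and 1.62 ± 0.15 (SE) for fermt2.L (edgeR adjusted p of at most 0.000178).

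In the matrix itself, lama1.L, the laminin chain of early basement membranes, stood at 0.724 and 1.97 CPM in the controls and 195 and 168 CPM with Chordin. vcan.L, versican, a large chondroitin sulfate proteoglycan, stood at 0.362 and 0.394 CPM and 70.6 and 69.7 CPM, and fbn3.L, a fibrillin, at 0.241 and 0.197 CPM and 24.1 and 23.5 CPM. sparc.S, a collagen-binding protein of basement membranes, stood at 2.84 and 1.51 CPM and 45.8 and 40.8 CPM. In all 4 both Chordin libraries lay above both control libraries (edgeR adjusted p of at most 2.52e-06). In the list of laminins and basement membrane genes 15 of 36 (41.7%) were higher and 9 (25%) lower. In that of other collagens and fibrillar matrix 16 of 64 (25%) were higher and 15 (23.4%) lower, both below the 31.7% and 32% of all genes.

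In the lists of neural adhesion and guidance genes more genes rose than fell. Of 53 neural adhesion molecules of the immunoglobulin type 25 were higher and 8 lower (median log2 fold change 0.77). kirrel2.S, a nephrin-type adhesion molecule, stood at 0.724 and 0.59 CPM in the controls and 292 and 279.7 CPM with Chordin. Of 21 ephrins and Eph receptors, which sort cells and guide axons, 13 were higher and 5 lower; epha4.L stood at 8.27 and 8.79 CPM and 98.1 and 99.6 CPM. Of 71 guidance cues and receptors 31 were higher and 18 lower. sema3a.S, a repellent semaphorin, stood at 0.664 and 0.919 CPM and 21.9 and 20.6 CPM, and nrp2.L, a semaphorin receptor, at 0.603 and 0.722 CPM and 13.4 and 14.1 CPM. sema3f.L fell from 74.7 and 70.8 CPM to 21.4 and 22.8 CPM. Among the protocadherins and their large relatives 10 of 34 were higher and 14 lower; pcdh7.L, known in Xenopus as NF-protocadherin of the embryonic ectoderm, stood at 197 and 185 CPM in the controls and 4.71 and 4.15 CPM with Chordin. Over all adhesion lists 172 of 482 genes (35.7%) were higher and 157 (32.6%) lower. By at least 2-fold 28% were higher and 21.8% lower, against 16.1% and 20.9% of all genes, and the median absolute log2 fold change was 1.23 against 0.77 over all genes.

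**Figure D4:**
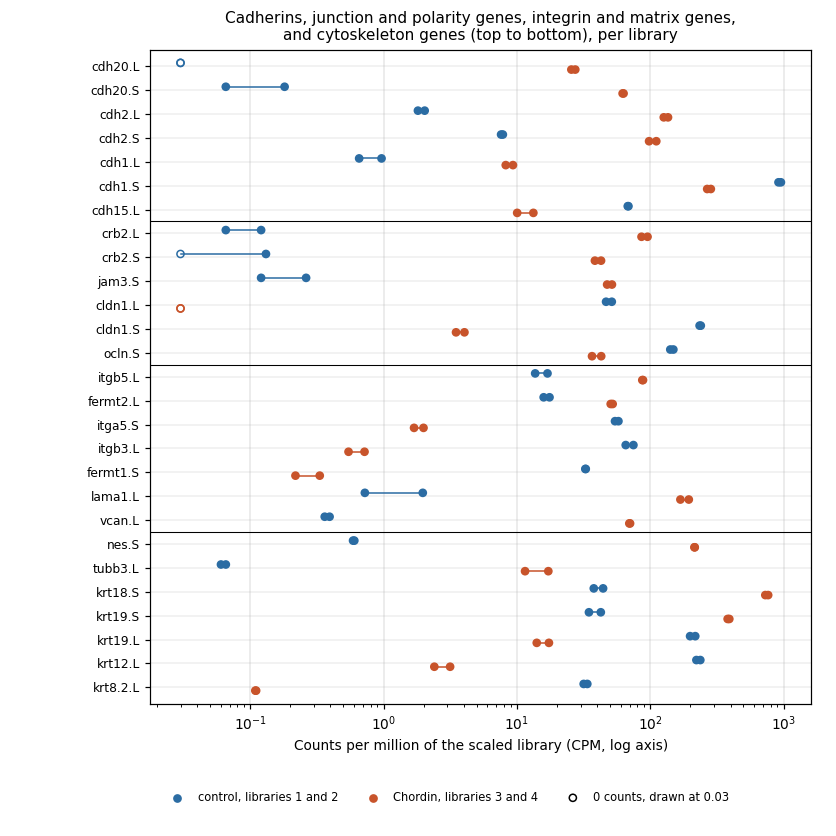
Levels per library of cadherins, of junction and polarity genes, of integrin and matrix genes and of cytoskeleton genes, in CPM on a log axis; each point is 1 library, and open circles mark libraries with no counts. Family members part ways: the Chordin libraries lie to the right for cdh20, cdh2 and cdh1.L but to the left for cdh1.S and cdh15.L, and to the right for krt18.S and krt19.S but to the left for krt19.L, krt12.L and krt8.2.L.

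Keratin genes fell in sum, and the genes of nestin and the neuronal beta-tubulin tubb3 rose. Of 22 keratin genes 14 were lower and 5 higher, and their sum fell from 44550 and 45541 CPM to 23159 and 23056 CPM. krt5.7.S, the keratin gene with the most counts in control, stood at 17618 and 18199.8 CPM in the controls and 5249.5 and 5344 CPM with Chordin. krt12.L stood at 237 and 222 CPM and 3.16 and 2.4 CPM. nes.S, nestin, the intermediate filament of neural progenitors, stood at 0.603 and 0.59 CPM in the controls and 215 and 216 CPM with Chordin (log2 fold change 8.47 ± 0.15 SE, edgeR adjusted p = 6.24e-09). tubb3.L had 2 counts in control and stood at 11.5 and 17.2 CPM with Chordin, a ratio of 229 (95% counting interval 63 to 1894). All 4 copies of nes and tubb3 were called higher. They belong to lists that moved both ways: of 39 genes of other intermediate filaments and the neuronal cytoskeleton 16 were higher and 12 lower (7 lower without library 3, 8 without library 2). Of 34 tubulin genes 12 (35.3%) were higher and 8 (23.5%) lower, against 31.7% and 32% of all genes. Among them tubb4b.L, a tubulin abundant in cilia and counted among the multiciliated cell markers, fell from 91.1 and 89 CPM to 28.5 and 27.6 CPM. Of 161 myosins and actin regulators 71 were lower and 43 higher. Among these the myosin myo9a.L stood at 57.5 and 53.7 CPM and 2.27 and 3.0 CPM.

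The long and short copies of a gene usually moved the same way but not always. In 6596 pairs with both copies tested, both were called in 3193, in the same direction in 2686 (84.1%) and in opposite directions in 507. Where both changed at least 2-fold, 1201 pairs moved together and 177 apart, 33 of the latter in the lists described here. An example is the keratin pair krt19: krt19.L stood at 199 and 218 CPM in the controls and 17.4 and 14.1 CPM with Chordin, and krt19.S at 34.7 and 42.6 CPM and 381 and 392 CPM. For the protein agrin of basement membranes and synapses, agrn.S stood at 16.1 and 19 CPM and 1.94 and 2.18 CPM, and agrn.L at 7.24 and 9.58 CPM and 17.9 and 17.3 CPM. For the neurofilament nefm, nefm.L stood at 5.97 and 7.28 CPM and 0.332 and 0.655 CPM, and nefm.S at 0.181 and 0.0656 CPM and 0.941 and 0.983 CPM. For connexin gjb2, of gap junctions, gjb2.L stood at 9.05 and 7.87 CPM and 0.886 and 0.874 CPM, and gjb2.S at 0.0603 and 0.459 CPM and 0.997 and 1.86 CPM. Both short copies lay under 2 CPM in all 4 libraries, and their edgeR calls rested on single libraries: the adjusted p of nefm.S was 0.0066 and rose to 0.0627 without library 2, and that of gjb2.S was 0.011 and rose to 0.0855 without library 1 and 0.0935 without library 4. In each of these pairs the copy that was higher with Chordin and the copy that was lower were both apart from control in every library. The copies' symbols come from the deposited table, so a pair may also hold genes that are not true copies of each other, which was not tested.

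Of the 189 genes that rose from under 1 CPM 153 were in none of the 66 lists, as were 284 of the 311 that fell below it. The lists held only 3269 of the 23130 genes tested, so most genes of any kind lay outside them. Among the genes outside the lists chosen by size of change, bmpr1b.L, a BMP receptor, had no counts in control. It stood at 25.8 and 28.4 CPM with Chordin, at least 287-fold higher. fezf1.L, a transcription factor of the forebrain, had no counts in control and 71.1 and 71.7 CPM with Chordin, at least 757-fold higher. plcb2.L, a phospholipase C, stood at 24.7 and 27.6 CPM in the controls and had no counts with Chordin, at least 316-fold lower. pou2f3.L, the transcription factor of chemosensory tuft cells in mammals, stood at 37.3 and 36.5 CPM and 0 and 0.0546 CPM, a ratio of control to Chordin of 1342 (95% counting interval 240.4 to 53062). Among genes with the largest change in transcript number, gfpt1.L, which makes the sugar donor for glycoproteins and hyaluronan, fell from 3269 and 3366 CPM to 1396 and 1247 CPM. azin2.S, an antizyme inhibitor of polyamine metabolism, fell from 1733 and 1639 CPM to 462 and 414 CPM, and gata2.L, a transcription factor of ventral ectoderm, from 1044 and 1046 CPM to 142 and 116 CPM. rcc2.L, a chromosomal passenger and Rac regulator, rose from 312 and 277 CPM to 965 and 982 CPM, and ptma.S, prothymosin alpha, of proliferating cells, from 519 and 525 CPM to 1176 and 1182 CPM.

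The same question could be put to the other 4 libraries, in which Chordin was added to Pinhead: libraries 7 and 8 against 5 and 6 share no library with the comparison above. Of the 7329 genes higher with Chordin alone, 6877 (93.8%) had the same direction there and 5524 (75.4%) were called in it, and 103 were called the opposite way. Of the 7408 lower genes 6965 (94%) had the same direction, 5695 (76.9%) were called in it, and 95 were called the opposite way. Of all genes higher at least 2-fold, 82.9% were called higher with Pinhead present, and of those lower at least 2-fold, 83.2% were called lower. In the cell cycle lists it was 101 of 104 higher genes (97.1%) and 36 of 43 lower ones (83.7%). For higher genes the share was 86.2% in the metabolic, 79.7% in the transport, 85.9% in the adhesion, 82.4% in the growth and 86.9% in the cytoskeleton lists. For lower genes it was 79.1%, 85%, 83.8%, 73.7% and 83.1% in the same order. psat1.L, as an example, stood at 0.422 and 0.275 CPM with Pinhead alone and 34.6 and 38.5 CPM with both proteins. mcm4.S stood at 20.8 and 24.9 CPM with Pinhead alone and 128 and 138 CPM with both, and hk2.S at 404 and 366 CPM and 40.4 and 11.2 CPM.

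The test of the difference between the 2 comparisons called 2536 genes (11% of those tested), a count that ranged from 527 without library 4 to 4405 without library 7 (1269 without library 5, 637 without library 1 or 3, 797 without library 2 and 3871 without library 8). Library 7 held more transcript of markers of 3 epidermal cell types than library 8. The ionocyte markers summed to 97.2 and 10.6 CPM in libraries 7 and 8, and the multiciliated cell markers to 895 and 576 CPM. Those of goblet and small secretory cells summed to 2418 and 1264 CPM. With Chordin alone (libraries 3 and 4) the sums were 18 and 14.5, 458 and 452, and 2498 and 2622 CPM in that order. Over the 311 genes that fell below 1 CPM with Chordin alone, the median level was 24.8 and 26.3 CPM in the control libraries and 0.221 and 0.273 CPM in the Chordin libraries. It was 23.7 and 21.7 CPM with Pinhead alone and 3.18 and 0.392 CPM in libraries 7 and 8. slc6a3.S, for example, stood at 37.5 and 0 CPM in libraries 7 and 8. Of these 311 genes 309 were called lower in both over Pinhead, against 83.2% of all genes lower at least 2-fold. For the difference 86 were called, against 14.8% of genes lower at least 2-fold and 11% of all genes tested. The 311 genes were chosen by their levels in the control and Chordin libraries, which favours a smaller change in the other comparison. What part library 7 has in these calls was not tested. Over the 189 genes that rose from under 1 CPM, chosen in the same way, the median was 27 and 25.6 CPM with Chordin alone and 23.3 and 23.3 CPM with both. All 189 were called higher in both over Pinhead, against 82.9% of all genes higher at least 2-fold. For the difference 47 of them were called, against 18.3% of genes higher at least 2-fold and 11% of all genes tested. The choice by level and size of change favours calls in both over Pinhead, for the 189 as for the 311 genes.

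Genes called for the difference included some of the strongest responses. cyp26c1.S, at 0.0603 and 0.197 CPM in the controls and 164 and 142 CPM with Chordin, stood at 14.2 and 12.9 CPM with Pinhead alone and 153 and 162 CPM with both, a difference in log2 fold change of -6.63 (edgeR adjusted p = 2.70e-05). kirrel2.S stood at 2.8 and 3.85 CPM with Pinhead alone and 249 and 229 CPM with both (difference -2.56, edgeR adjusted p = 0.000857). llgl1.L stood at 38.9 and 47.1 CPM and 431 and 393 CPM (difference -2.09, edgeR adjusted p = 0.000298). In all 3 genes both Pinhead libraries lay above both control libraries, and the rise with Chordin was smaller where Pinhead was expressed too. Genes named here were chosen by the size of their change between Chordin and control, which is subtracted in the difference, so that the choice itself favours a smaller change in the other comparison. Over all 2536 genes called for the difference, the absolute log2 fold change was smaller with Pinhead in 1590 (62.7%).

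**Figure D5:**
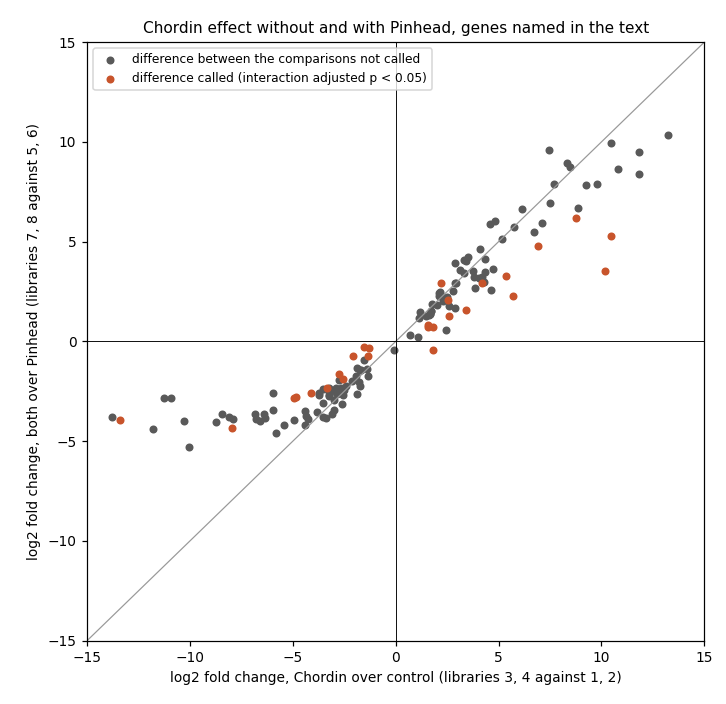
Log2 fold change of each gene named in the text for Chordin over control (x axis, libraries 3 and 4 against 1 and 2) and for both proteins over Pinhead (y axis, libraries 7 and 8 against 5 and 6); the grey line marks equal change, and orange points are genes for which edgeR called a difference (adjusted p under 0.05). Points lie in the lower left and upper right, except hk1.S in the lower right, and those far to the left, near 0 counts with Chordin alone, fall less with both proteins.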

How the data were processed

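RNA was sequenced from 8 libraries of ectodermal explants in 4 groups of 2, and 4 libraries, 2 control and 2 Chordin, were compared here. Per the labels, an RNeasy kit was used and paired ends were read over 150 bp. The deposited table holds the authors' raw counts per gene, whole numbers in 2 columns (runs) for each library, which were summed. Reads were aligned with HISAT2, per the submitters' processing notes; the version, counting tool, strand setting, build and annotation were not given in the sources used here. In all, the table held 45035 named genes, and 1 line with its name left empty was not analysed here. Gene copies keep the symbols of the table, and no coordinates or sequences were used.

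The scaling was TMM (trimmed mean of M values) in edgeR 4.0.16 (R 4.3.3), and genes were kept by filterByExpr with its minimum of 10 counts and 15 in total. A single quasi-likelihood model of the 4 groups took all 8 libraries, with 4 residual degrees of freedom and a common dispersion of 0.014. Contrasts were Chordin against control, both against Pinhead and the difference of the 2; p-values are two-sided and adjusted by Benjamini-Hochberg over all genes. The same code was tested on simulated counts. The 8 libraries held 15052017 to 19677493 counts, so that 1 CPM stood for 14.53 to 18.96 counts. Folds against a group without counts are lower bounds against 3 counts over the group, and folds with 1 to 3 counts are ratios with a 95% counting interval; both cover counting error alone.

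The members and the 66 gene lists, with 12 lists of cell type markers, were chosen with earlier results of these data known. Lists were name patterns matched to the gene symbols of the table, and some false matches were removed by name after the table was seen, which affects the counts per list. Per list, up to 3 genes per direction were named by largest fold change. They were called, changed at least 2-fold, reached 5 CPM and had no overlap of the groups. Of all called genes with a gene symbol, not a provisional name, and no overlap, the 15 per direction with the largest change in CPM were named. From the same genes, up to 10 per direction outside the lists at 20 CPM or more were named by fold change. The text uses a part of these. Some genes that the rule names are not reported here. Further copies and members of a named complex, family, pathway or marker list were chosen after their values were seen. Alternatives were RLE, upper quartile and total-count scaling, no filter, DESeq2 1.42.0, a fit of 4 libraries alone and each library left out. Python 3.11.15 with matplotlib 3.10.9 drew the figures.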

Additional observations from a re-analysis of the deposited data

Results flagged for a closer look

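For 27 of the genes named above, the Chordin response differed between explants without and with Pinhead by edgeR's test of the difference (adjusted p under 0.05 over all genes). Values here are differences in log2 fold change, both over Pinhead minus Chordin over control. In 26 of the 27 the Chordin effect was smaller where Pinhead was expressed, a count that the choice of genes by their Chordin response favours; over all 2536 genes called for the difference it was smaller in 1590 (62.7%). Libraries 7 and 8 differed in the summed level of markers of epidermal cell types, as given above; the part of library 7 in these differences was not tested.

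Among genes higher with Chordin, the difference was -6.63 for cyp26c1.S, -2.17 for cyp27c1.S, -3.42 for st3gal5.S, -0.85 for pfkm.S and -2.21 for hk1.S. The fitted change of hk1.S also turned direction, from higher without Pinhead to lower with it, and is counted as smaller by its absolute size. For the adhesion and cytoskeleton genes it was -2.56 for kirrel2.S, -2.09 for llgl1.L, -1.85 for cdh1.L and -1.27 for krt18.S. The growth and replication genes had -1.32 for myc.S, -1.08 for wdr36.S, -0.75 for wdr12.S and -0.48 for mcm6.2.S. The exception was rrm2.2.L, with 0.74, whose rise was larger with Pinhead. st8sia1.S had -5.19, a fitted value that rests on control libraries without counts and depends on the prior count.

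Among genes lower with Chordin, the difference was 3.64 for ccno.S, 1.15 for gadd45g.S, 0.69 for cdk7.L and 1.32 for top1.2.S. The replication genes mcm6.L and rrm2.1.L had 1.24 and 0.60, and npm2.L had 0.97. In metabolism it was 1.51 for has1.S, 2.05 for has-rs.S and 0.98 for mat1a.L, and itga5.S had 2.11. The ionocyte marker dmrt2.L had 9.46, which rests on Chordin libraries without counts and depends on the prior count.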

How the results depend on the processing

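Across 3 other scalings, no filter, DESeq2, a fit of the 4 libraries alone and each library left out in turn, genes called higher numbered 5971 to 8392 and genes called lower 5987 to 8028; at least 2-fold, 3381 to 4306 were higher and 4351 to 5329 lower. All of these counts lay within 1.5 times the main count. Scaling by total counts alone moved the share of higher calls from 49.7% to 56%. Over the 21731 genes with more than 3 counts in control and in Chordin, that scaling moved the median log2 fold change from 0.0044 to 0.13. The count of genes whose Chordin response differed with Pinhead, 2536, depended on the settings: it was 4495 without a filter and 527 to 4405 when a library was left out. Why it varied was not tested. With 2 libraries per group, leaving out 1 leaves a lone library that is assumed to vary like the other groups. Of the 151 genes named, 148 kept their direction and call under every alternative. nefm.S lost its call without library 2 and gjb2.S without library 1 or 4, both with the same direction. atp6v0d1.L, which was not called, turned from a log2 fold change of -0.058 to 0.018 under upper quartile and 0.068 under total-count scaling. No paired analysis was possible because the replicate numbers in the labels run from 1 to 8 and are not shared between groups.

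Below 1 CPM, 40.5% of genes were called, against 76.4% of those above 100 CPM, so that small changes of weakly expressed genes were not detectable at this depth.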
